A study of Mus musculus with 3 samples.

Results

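The genes described here encode the proteins of the cytosolic ribosome. They were taken as the RefSeq protein-coding genes of mouse build mm10 whose symbols follow the pattern of Rpl or Rps with a number, together with Rplp0, Rplp1, Rplp2 and Rpsa. The rule found 81 of 21887 genes. Of these, 30 belong to the small subunit, 43 to the large subunit and 3 to the acidic stalk, and 5 have symbols ending in l (Rpl3l, Rpl10l, Rpl32l, Rpl39l and Rps27l). Open regions were assigned to the nearest gene span within 100 kb. That gave these genes 183 of 57457 regions, and 77 of the 81 genes had at least 1. A region lying at least partly within 1 kb of the first or last base of its gene is called a gene-end region, and 90 of the 183 regions were of this kind. The remaining 93 are called other regions.

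Chromatin accessibility had been measured by ATAC-seq, which reads where a transposase can reach the DNA, in 3 sorted fractions of CD4+ T cells. Naive CD4+ T cells from the spleen of CBir1 mice, whose transgenic T cell receptor recognises a bacterial flagellin, were stained with CellTrace Violet, a dye that each division dilutes, and given to 4 wild-type C57BL/6J mice. All hosts drank 2% dextran sulfate sodium (DSS), an agent that injures the lining of the colon, for 7 days, and all received FTY720, a drug that stops T cells from leaving the nodes, in doses of 1 mg/kg given on days 7, 10 and 13. On day 14 the mesenteric nodes draining the colon gave divided CBir1 cells (dye low), undivided CBir1 cells (dye high) and polyclonal cells, which are all CD4+ T cells of the host that are not CBir1. Cells of 2 mice were joined for each pool, with a duplicate pool per fraction. One list of peaks per fraction was used here, and the labels do not say how the duplicate pools went into it. No library came from an untreated mouse. The polyclonal fraction is a mixture of clones and was not sorted by division. With 1 library per fraction, a difference between fractions is a difference between libraries, has no replicate check and was given no p-value.

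The divided list held 47963 peaks, the undivided list 41876 and the polyclonal list 44426. Values given in threes below are in that order of libraries. The lowest local background, which follows depth, was 1.21, 0.808 and 0.865 fragments, so the divided library stood apart as the deepest. Of 13 T cell identity genes in the gene table, 13, 13 and 12 had a gene-end peak in the 3 libraries. Of 10 B cell genes, 5, 2 and 3 did, of 8 myeloid genes 2, 3 and 3, and of 5 epithelial genes 1, 2 and 2. In each library 1 of 4 NK cell, 1 of 4 erythroid and 1 of 2 CD8 T cell genes had one. Over all protein-coding genes the shares were 54.8%, 53.1% and 53.9%. The part of other cell types in the values below was not tested. The labels give no age for the mice.

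A ribosome joins a small subunit, which decodes the mRNA, to a large subunit, which forms the peptide bonds. Each ribosomal protein is needed in about the same number of copies, although its gene lies apart from the others in the genome. Most of these mRNAs begin with a run of pyrimidines (C and U) at the cap, the TOP motif, through which mTOR signalling sets their translation. Naive T cells are small and make little protein, and a T cell that has been activated enlarges and builds many ribosomes before and during division.

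The starts of these genes are shown first because the TOP motif is read from them. Each stretch runs 5′ to 3′ on the gene's strand, from 60 bases before the RefSeq start through the first 20 bases from it on, and capitals mark the longest run of C and T letters in the stretch. Rpl7a has the longest run of the genes with a promoter entry and Rpl15 a long one in a strongly open region. Rplp2, Rpl13 and Rps9 lie at the ends of the order by divided over undivided accessibility. Rps2 and Rpl19 have their open start inside the gene span, and Rpl10l and Rpl3l have no assigned open region.
Rpl7a: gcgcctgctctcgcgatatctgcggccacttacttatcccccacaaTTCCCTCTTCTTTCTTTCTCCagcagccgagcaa
Rpl15: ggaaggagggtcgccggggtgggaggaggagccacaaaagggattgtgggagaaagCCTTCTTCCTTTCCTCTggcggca
Rplp2: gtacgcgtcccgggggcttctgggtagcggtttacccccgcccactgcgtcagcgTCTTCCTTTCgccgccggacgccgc
Rpl13: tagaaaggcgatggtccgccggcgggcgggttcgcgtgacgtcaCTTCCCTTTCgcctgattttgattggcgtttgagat
Rps9: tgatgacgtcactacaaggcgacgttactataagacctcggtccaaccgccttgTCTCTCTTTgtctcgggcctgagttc
Rps2: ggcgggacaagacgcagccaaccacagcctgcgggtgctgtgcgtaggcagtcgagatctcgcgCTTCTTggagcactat
Rpl19: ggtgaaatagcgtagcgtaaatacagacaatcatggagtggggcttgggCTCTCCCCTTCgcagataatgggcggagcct
Rpl10l: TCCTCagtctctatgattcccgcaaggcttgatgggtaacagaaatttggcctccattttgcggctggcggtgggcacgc
Rpl3l: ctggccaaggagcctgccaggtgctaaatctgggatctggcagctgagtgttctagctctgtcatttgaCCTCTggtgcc

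The sequences come from RefSeq on GRCm38.p6, the assembly of mm10. Rpl7a is at chr2:26910747-26910826, Rplp2 at chr7:141447591-141447670, Rpl13 at chr8:123102290-123102369 and Rps9 at chr7:3703981-3704060, all on the plus strand. Rps2 at chr17:24720003-24720082, Rpl19 at chr11:98026864-98026943 and Rpl3l at chr17:24727766-24727845 are on the plus strand too. Rpl15 at chr14:18270967-18271046 and Rpl10l at chr12:66284382-66284461 are on the minus strand. In Rpl7a the run is 21 letters long, in Rpl15 17, in Rpl19 11, in Rplp2 and Rpl13 10 and in Rps9 9. In the stretch of Rps2 it is 6 letters, and in those of Rpl10l and Rpl3l it is 5.

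Runs of pyrimidines were more frequent at ribosomal protein genes than over the promoter table as a whole. Of the 61 with a promoter entry, 51 (83.6%, 95% Wilson interval 72.4 to 90.8) held a run of at least 8 C or T letters within 50 bases either side of the start, on the gene's strand. Such a run can lie anywhere in that window, as at -50 in Rpl26 and 36 in Rpl39, so this is not a share of TOP motifs. Rpl19 is not among the 51, since the count used the listed start nearest its gene-end region, where the longest run is 5 letters, and the stretch shown is at another start. With any listed start of a gene, the shares were 85.2% and 39.2% of all genes. The share at the single start was 35.1% over 17492 protein-coding genes and 31.0% over the 9145 of them with a gene-end peak in all 3 libraries. The median longest run was 10 letters against 6 over all genes. Runs of at least 8 A or G letters, the same measure on the opposite strand, were found in 14 of 61, or 23.0%, against 36.1% over all genes. The large subunit had a C or T run in 29 of 32 genes and the small subunit in 17 of 22. Mitochondrial ribosomal protein genes, whose products build the separate ribosome of that organelle, had one in 24 of 66 (36.4%), close to all genes, and translation factor genes in 13 of 28 (46.4%). Of the 5 genes with symbols ending in l, 4 held such a run, so it was also present at starts with no open region; that of Rpl3l, 9 letters, lies past the stretch shown. Rps2, too, is counted by a run of 10 letters past its stretch.

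**Figure D1:**
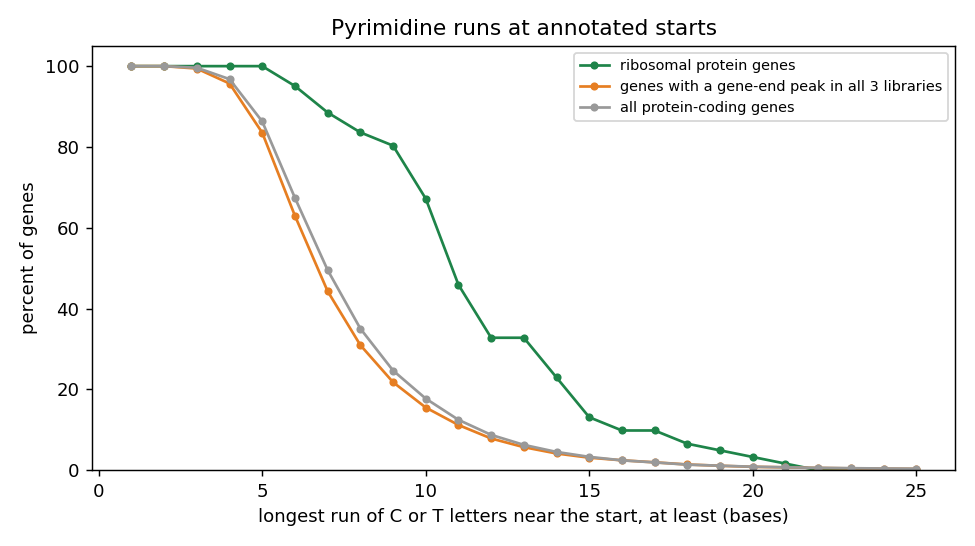
Percent of genes (vertical axis) whose longest run of C or T letters within 50 bases either side of the start has at least the number of bases on the horizontal axis, for 61 ribosomal protein genes, 17492 protein-coding genes and the 9145 of them with a gene-end peak in all 3 libraries. At 8 letters the lines stand at 83.6%, 35.1% and 31.0%.

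In the same 100 bases, 9 letter strings were counted on both strands. CTTTCC, which can lie inside a C or T run, was found at 30 of 61 ribosomal protein genes (49.2%) and 25.7% of all genes. CCGGAAG, a core of ETS family sites, was found at 24 (39.3%) against 12.1% of all genes and 19.8% of those open in all 3 libraries. The 10-letter palindrome known as the CGCG element was found at 6 (9.84%) against 0.732% and 1.18%. The other strings differed less from both shares, or in direction between them. CCAAT was present at 31.1%, against 39.0% of all genes and 39.6% of the open ones. GGGCGG was present at 55.7%, above all genes (46.8%) and below the open ones (67.0%), and TATAAA at 9.84%, below all genes (13.3%) and above the open ones (6.35%). CACGTG, the E-box that Myc and its partners can bind, was present at 8.20% against 7.90% and 10.3%. AAGATGGC (6.56% against 3.28% and 4.98%) and GCATGCGC (4.92% against 3.58% and 5.69%) were found at few starts. A match describes the letters and is not a binding site.

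Nearly every gene of the working ribosome was open at a gene end in all 3 fractions. A gene-end peak was called at 75 of 81 genes in each library, and at the same 75 in all 3 (92.6%, Wilson interval 84.8 to 96.6). Over all protein-coding genes the share was 54.8%, 53.1% and 53.9% in the 3 libraries and 51.6% in all 3. The count was 29 of 30 for the small subunit, 42 of 43 for the large subunit and 3 of 3 for the stalk, which recruits the elongation factors. Only 1 of the 5 genes with symbols ending in l had one, Rps27l, a copy of Rps27 known as a target of p53, with summit pileups of 127, 105 and 104 fragments. A summit pileup is the number of fragments stacked at the highest point of a peak.

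The 6 exceptions were of 2 kinds. Rps2, a small subunit protein at the mRNA entry side, and Rpl17, a large subunit protein at the end of the nascent chain tunnel, had a strong region inside the gene span and beyond the 1 kb window. The Rps2 region, chr17:24719626-24720495, had pileups of 126, 125 and 117 fragments and covers the RefSeq start shown above. The Rpl17 region had 56, 50 and 56. Both were therefore open in every library, at levels that lie among those of the other genes.

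The other 4 exceptions were Rpl3l, Rpl10l, Rpl32l and Rpl39l, to which no region was assigned in any library. Rpl3l stands in for Rpl3 in skeletal and heart muscle, Rpl10l for the X-linked Rpl10 in male germ cells, and Rpl39l for Rpl39 mainly in the testis. The only region in the window of Rpl3l, chr17:24736157-24737062, lies 14 bp past its span, was assigned to Msrb1 and had pileups of 103, 77 and 100. From the ends of Rpl10l and Rpl39l the nearest region was 190791 and 209014 bp away, and from Rpl32l 2906 bp, at Map7. When the window was set on starts in the promoter table, 57 of the 61 genes with an entry had a peak in all 3 libraries against 54.0% of all genes with one, and the 4 without it were the same 4 genes.

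Peaks lay at the beginning of the genes. Where the promoter table gave the strand, the strongest gene-end region lay at the 5′ end in 56 of 56 genes, and in 3 of them it reached the 3′ end too. With negative positions upstream of the start, the median summit was at -26.5 bp in divided, -41 bp in undivided and -39 bp in polyclonal cells. It was within 150 bp of the start in 40 of 56, 43 of 55 and 43 of 56 genes, or 71.4%, 78.2% and 76.8%, against 59.5%, 59.2% and 59.8% of all genes. Where several starts are listed, the one nearest the divided summit was used. Nearness to the start is therefore in part set by that choice, above all in the divided library. Summits also kept their place between libraries. The median shift was 5.5 bp between divided and undivided, 10 bp between divided and polyclonal and 12 bp between undivided and polyclonal, against 24, 24 and 24.5 bp over all genes. The shares shifted by at most 50 bp were closer, at 68.9%, 66.7% and 71.6% against 64.0%, 64.3% and 64.2%.

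**Figure D2:**
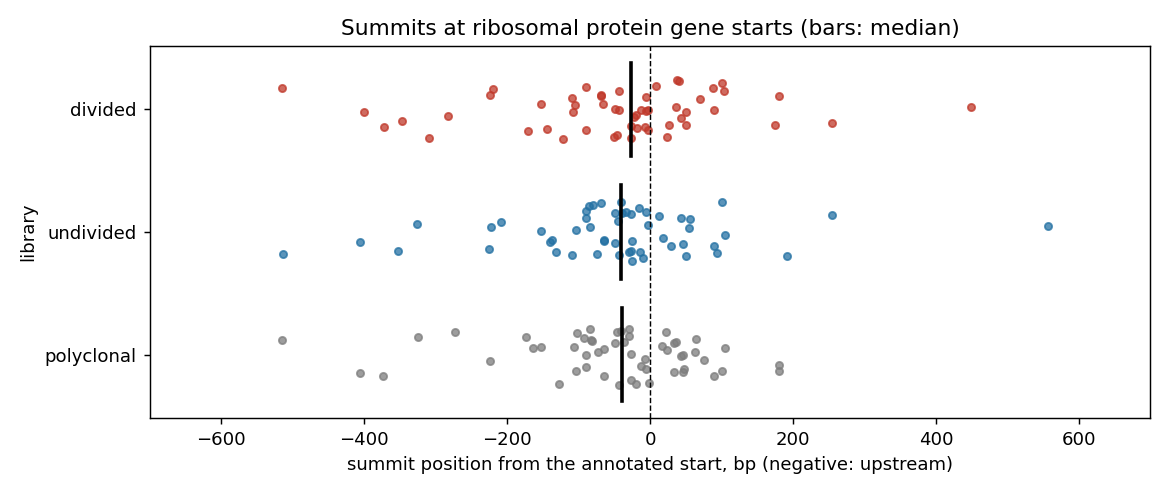
Position of the summit of the strongest gene-end region from the RefSeq start (horizontal axis, bp, negative is upstream) for each ribosomal protein gene with a strand, in the 3 libraries (rows); points are genes, spread vertically for sight, and bars are medians at -26.5, -41 and -39 bp. Rpl18 and Rpl19, whose summits lie far upstream, are in the medians and outside the axis.

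A few genes departed from this. The strongest region of Rpl18 had its summit at -2740 bp from the listed start in divided, -2754 bp in undivided and -2740 bp in polyclonal cells, and that of Rpl7a at -515, -514 and -515 bp. In Rps9 the summit lay 449 bp downstream of the start in divided cells, and its 3 summits spread over 474 bp. Rpl19 was the clearest case of a span that does not begin at the start in use. Its strongest gene-end region, chr11:98022606-98022887, also lies at the end of Cacnb1 and had 29 fragments in divided cells, no peak in undivided cells and 27 in polyclonal cells. The region at the RefSeq start of Rpl19 shown above, chr11:98026438-98027538, was called in all 3, with 77, 41 and 59 fragments.

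The level of opening differed between genes of the same complex, by less than between open genes at large. The SD of the log2 pileup was 0.63, 0.69 and 0.66, against 1.19, 1.17 and 1.20 over all genes with a gene-end peak. Summit pileups at the strongest gene-end region ran from 29 to 204 fragments with a median of 102 in divided cells. They ran from 21 to 180 with a median of 81 in undivided cells, and from 27 to 192 with a median of 89 in polyclonal cells. Ranked among all genes with a gene-end peak, the median gene stood at percentile 54.5, 52.3 and 54.7, so the set was near the middle of open genes. Windows set on the promoter table's starts gave 44.5, 47.0 and 47.6. A pileup counts fragments at 1 position, so it is not affected by gene length.

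Rpl37 and Rps29 were among the highest. Rpl37, a zinc-binding large subunit protein, had 204, 159 and 176 fragments, in the order divided, undivided, polyclonal, at chr15:5116150-5116915, a region also at the end of Card6. Rps29, a small zinc-binding protein of the small subunit, had 184, 170 and 190. Rpl37 stood at percentile 92.1, 88.5 and 91.2, and Rps29 at 88.2, 91.0 and 93.8.

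Rpl19, Rpl13, Rpl9 and Rpl8 were lowest. Rpl13 had 40, 21 and 28 fragments at chr8:123101768-123103022, which is percentile 19.1, 10.5 and 14.9. Rpl9 had 42, 41 and 40 and Rpl8, which lies close to the peptidyl transferase centre, 50, 34 and 39. The low place of Rpl19 is that of the region at Cacnb1, not of its own start. Leaving Rpl19 aside, pileups of genes in the same complex thus ran between 40 and 204 in the divided library.

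Genes with known further roles lay between these ends. Rps6, the small subunit protein that S6 kinases phosphorylate, had 103, 71 and 77 fragments. Rpl5 and Rpl11, which can bind Mdm2 when ribosome assembly fails, had 62, 43 and 50 and 102, 81 and 90. Rpsa, also known as a laminin receptor, had 130, 101 and 94, and Rps27a, made as a fusion with ubiquitin, 153, 136 and 136. These members were picked for their roles. The X-linked Rpl10 and Rps4x had 108, 91 and 108 and 63, 51 and 53.

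**Figure D3:**
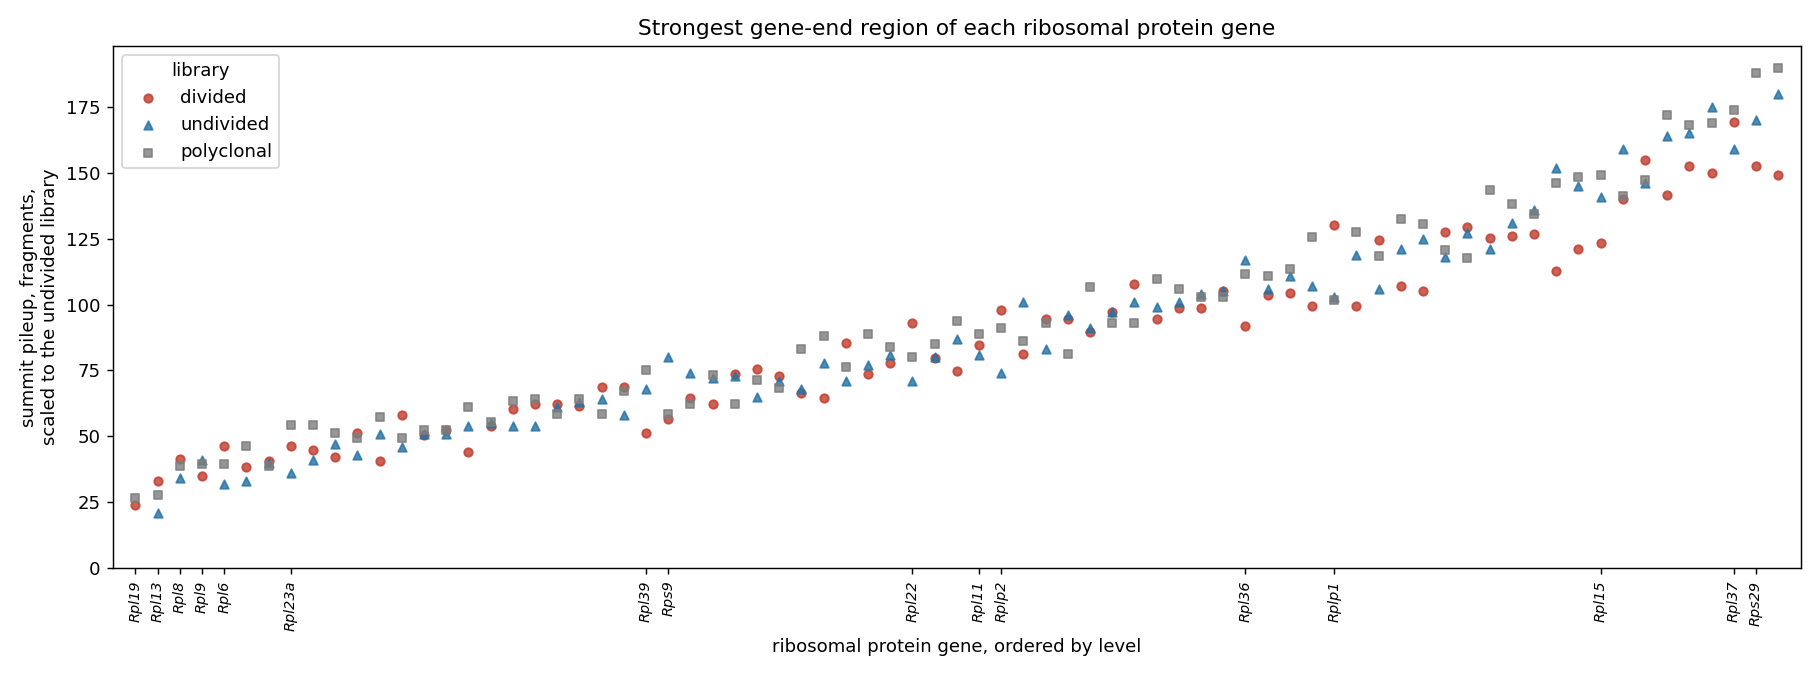
Summit pileup of the strongest gene-end region (vertical axis, fragments, divided by the median ratio of shared regions to the undivided library) for the 75 ribosomal protein genes with one, ordered by level along the horizontal axis; circles are divided, triangles undivided and squares polyclonal. The 3 libraries follow each other from Rpl19 and Rpl13 on the left to Rpl37 and Rps29 near the right end; names are shown for some genes.

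Divided and undivided CBir1 cells were nearly alike at these genes. Pileups were compared as log2 ratios after scaling by the median ratio over regions called in all 3 libraries, which took off 0.27 for divided over undivided and 0.25 for divided over polyclonal. The median log2 ratio of divided over undivided was -0.03 over 74 genes, against 0.03 over 11401 genes. It was -0.07 for the small subunit (29 genes), -0.01 for the large subunit (41 genes) and 0.34 for the stalk (3 genes). Past 1.5-fold, 1 gene was higher in divided cells where 5.85% of all genes were, and 0 were higher in undivided cells where 2.64% of all genes were. Scaled by the lowest background instead, the medians were -0.34 for these genes and -0.29 for all genes, 0 genes were past 1.5-fold upward and 7 of 74 downward where 13.8% of all genes were past it either way, so both medians moved together.

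The gene past the fold was Rpl13. Its pileups of 40 in the divided and 21 in the undivided library gave a scaled fold of 1.58, with a 95% interval from counting of 0.909 to 2.82. The interval spans 1, and Rpl13 is among the lowest genes, where the counts are least precise. These intervals treat the pileup as a count of independent fragments, cover counting error only and were not adjusted for the number of genes. By its own start, Rpl19 was past the fold as well, with a log2 ratio of 0.64 from 77 and 41 fragments.

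Next in order were Rpl6, Rplp2 and Rpl22. Rpl6 had 56 and 32 fragments in the divided and undivided library, a fold of 1.45 (0.924 to 2.32). Rplp2, 1 of the stalk proteins, had 118 and 74, a fold of 1.32 (0.981 to 1.79). Rpl22, which is needed for the development of T cells with alpha-beta receptors, had 112 and 71, a fold of 1.31 (0.963 to 1.79). All these intervals reach below 1.

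Near the other end were Rps9, Rpl39 and Rpl36. Rps9, near the mRNA entry, had 68 fragments in the divided and 80 in the undivided library, a fold of 0.705 (0.503 to 0.986). Rpl39, at the tunnel exit, had 62 and 68, a fold of 0.756 (0.527 to 1.08), and Rpl36 111 and 117, a fold of 0.787 (0.601 to 1.03). The interval of Rps9 lies below 1, without an adjustment over 74 genes. Unscaled, these genes had fewer fragments in the divided library, although it was the deeper one.

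Against the polyclonal cells, divided cells showed the same narrow spread. The median log2 ratio was -0.08 over 75 genes and -0.03 over all 11501. No gene passed 1.5-fold either way, where 3.92% of all genes were higher in divided and 2.52% higher in polyclonal cells. Under the background scaling the medians were -0.31 and -0.26, with 0 genes past the fold upward and 6 of 75 downward where 10.8% of all genes were past it either way. Among the highest were Rplp1, the partner of Rplp2 in the stalk, with 157 fragments in the divided and 103 in the polyclonal library, a fold of 1.28 (0.993 to 1.66), and Rpl13 and Rps16 with folds of 1.20 and 1.19.

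Rpl39, Rpl24, Rpl26 and Rps26 were lowest in that pair. Rpl39 had 62 fragments in the divided and 76 in the polyclonal library, a fold of 0.686 (0.482 to 0.972). Rpl24, which joins the subunits by a bridge, had 49 and 58, a fold of 0.710 (0.475 to 1.06). Rpl26 had 53 and 62, a fold of 0.719, and Rps26, at the mRNA exit channel, 78 and 89, a fold of 0.737 (0.537 to 1.01). The interval of Rpl39 alone of these leaves out 1.

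Undivided and polyclonal cells were the closest pair in spread. The median log2 ratio was -0.08 over 74 genes and -0.06 over all 11342. No gene was past 1.5-fold in undivided cells, where 1.97% of all genes were, and 1 in polyclonal cells, where 3.94% were. Scaling by background moved the median to 0.0053 and that of all genes to 0.02, and no gene was past the fold where 5.69% of all genes were.

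The 1 gene was Rpl23a, a docking site for factors at the tunnel exit. It had 36 fragments in the undivided and 55 in the polyclonal library, a fold of 0.662 (0.423 to 1.03), and 56 in the divided one. Rpl32 (33 and 47 fragments), Rpl4 (41 and 55) and Rpl13 (21 and 28) followed with folds of 0.710, 0.754 and 0.759. At the upper end Rps9 had 80 and 59 fragments, a fold of 1.37 (0.968 to 1.95), and Rps24, Rpl28 and Rpl3 had folds of 1.19, 1.18 and 1.17. Rps9 and Rpl13 stand at opposite ends of 2 pairs that share the undivided library, so these places are not separate observations.

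The ratios varied less between these genes than over all genes. The SD of the log2 ratio was 0.23 for divided over undivided, 0.21 for divided over polyclonal and 0.17 for undivided over polyclonal. A Poisson count of the pileups would give 0.23, 0.23 and 0.24. That is more than was seen in both pairs with the polyclonal library, so it is not a lower limit for these pileups. Over all genes the SD was 0.36, 0.32 and 0.30, with many genes of lower pileup. Among the 4232 genes with a summed pileup in the range of the middle ribosomal protein genes (194.5 to 372 fragments) it was 0.27, 0.24 and 0.23, and among the 37 ribosomal protein genes there 0.21, 0.22 and 0.17. A narrow spread was not particular to ribosomal protein genes. Translation factor genes had 0.20, 0.21 and 0.23 and mitochondrial ribosomal protein genes 0.26, 0.21 and 0.22. Ribosome biogenesis genes had 0.27, 0.25 and 0.27, and genes that signal to translation 0.35, 0.22 and 0.37.

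**Figure D4:**
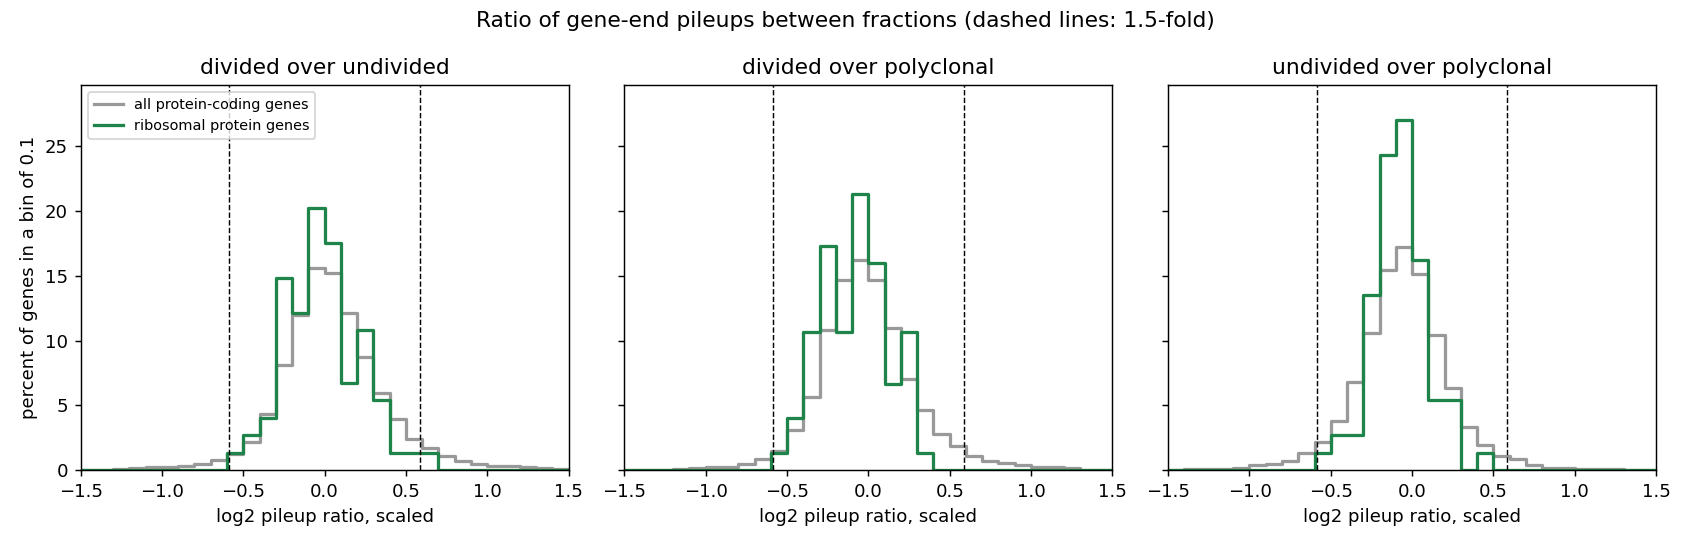
Percent of genes (vertical axis) in each bin of 0.1 of the scaled log2 pileup ratio (horizontal axis) for ribosomal protein genes and all protein-coding genes, 1 panel per pair of libraries; dashed lines mark 1.5-fold. The ribosomal protein genes have medians of -0.03, -0.08 and -0.08, and 1, 0 and 1 of them lie past the lines.

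Other features of the loci did not separate the ratios by much. Small nucleolar RNA genes, whose products guide rRNA modification, lay inside 29 of the 81 genes, 58 in all. The 27 such genes with a gene-end region had median log2 ratios of 0.02, -0.04 and -0.08 for the 3 pairs, and the 48 without had -0.04, -0.09 and -0.08. In 18 genes the strongest region was also at the end of another gene. Those had median pileups of 116, 117 and 103.5 fragments, and the 57 with a region of their own had 96, 80 and 86. The undivided median of 117 leaves out Rpl19, which had no undivided peak there and was low in the other libraries. Of the 81 genes, 4 have another within 10 kb.

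Genes that serve the ribosome were also open in all fractions. All 36 translation factors had a gene-end peak in the 3 libraries, as did 47 of 48 ribosome biogenesis genes (not Ubtf, which opens rDNA for RNA polymerase I), 73 of 75 mitochondrial ribosomal protein genes (not Mrpl24 and Mrpl4) and 13 of 16 genes that signal to translation (not Larp1, Larp4 and Ybx1). Over all protein-coding genes, 51.6% had a gene-end peak in all 3 libraries. Windows use the span's ends, so an inner start is missed, as at Rps2. Median log2 ratios of divided over undivided were 0.04, 0.05, 0.00 and 0.18 for the 4 lists. Past 1.5-fold upward were 0 of 36, 1 of 47, 1 of 73 and 2 of 13 genes, where 5.85% of all genes were. Past it downward was 1 mitochondrial gene, Mrpl35, where 2.64% of all genes were.

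Among them, Polr1c, a subunit of RNA polymerases I and III, had the highest ratio of its list, 0.75, from 85 fragments in divided and 42 in undivided cells. Eif4ebp1, which holds back the cap-binding factor Eif4e until mTOR phosphorylates it, had the highest of the signalling genes, at 0.68, with 60 and 31. Eif4e itself had the lowest of the translation factors, at -0.42, with 85 and 94. Rheb, the activator of mTOR, had the lowest signalling ratio, at -0.37, with 140 and 150. Between undivided and polyclonal cells, Tsc1, which restrains Rheb, was lowest, at -0.74 with 49 and 83 fragments, and Myc highest, at 0.32 with 133 and 108. In that pair 3 of 13 signalling genes were past 1.5-fold, all higher in polyclonal cells, where 3.94% of all genes were; the difference was not tested.

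Regions differed more between libraries away from the gene ends. Of the 90 gene-end regions, 80 (88.9%, Wilson interval 80.7 to 93.9) were called in all 3 libraries, against 82.9% of 13053 over all genes. Of the 93 other regions, 51 (54.8%, 44.7 to 64.6) were, against 49.6% of 41382. The other regions were weaker, with median pileups of 27, 29 and 22 fragments where called, against 90.5, 79 and 85 at gene ends.

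**Figure D5:**
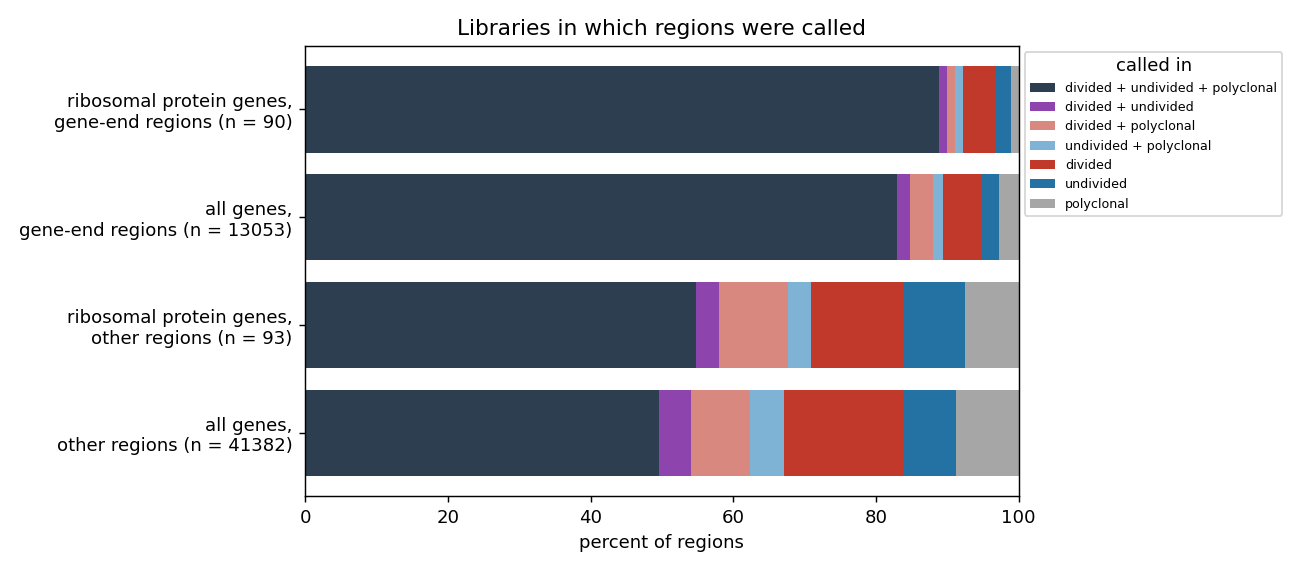
Percent of regions (horizontal axis) called in each combination of libraries (colours) for gene-end and other regions of ribosomal protein genes and of all genes (rows, with the number of regions). Regions called in all 3 make up 88.9% and 82.9% of gene-end regions and 54.8% and 49.6% of other regions.

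One-sided regions, called in 1 library of a pair with a −log10 q of at least 5 and not called in the other, were few at gene ends. For divided against undivided they numbered 1 and 2 of 90, where 4.63% and 1.53% of all gene-end regions were one-sided. For divided against polyclonal they numbered 1 and 2, where 3.56% and 1.42% were, and for undivided against polyclonal 2 and 1, where 1.69% and 2.44% were. Over gene-end and other regions together, the counts were 15 and 7 of 183 for divided against undivided, where 12.4% and 4.75% of all regions were one-sided. They were 13 and 5 for divided against polyclonal (9.68% and 4.88%) and 8 and 8 for undivided against polyclonal (4.43% and 6.67%). Those at gene ends came from 5 regions, none of which was the strongest of its gene.

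Of these, the region of Rpl19 past its 3′ end, chr11:98031296-98031695, had 28 fragments in the undivided library and no peak in the others. Rpl3, a protein of the peptidyl transferase centre, had a region with 27 in the undivided and 27 in the polyclonal library and no peak in the divided, at chr15:80076745-80077264. Rpl13 had a 3′ region with 23 in the divided and 20 in the undivided and no peak in the polyclonal library, and Rpl22 a 3′ region with 13 in the polyclonal library alone. The strand is known for Rpl19, Rpl13 and Rpl22, and these regions lay at 3′ ends. That place was largely set beforehand, since the strongest region lay at the 5′ end in all 56 genes with a strand. Of the 66 gene-end regions with a strand, 9 lay at the 3′ end only.

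Among other regions, one-sided ones were more frequent in the divided library, at shares close to those over the genome. They numbered 14 in divided against 5 in undivided cells, where 14.8% and 5.76% of all other regions were one-sided, and 12 against 3 for divided and polyclonal, where 11.6% and 5.97% were. For undivided against polyclonal they numbered 6 and 7, where 5.30% and 8.01% were. Of the 93, these are 15.1% and 5.38%, 12.9% and 3.23%, and 6.45% and 7.53%. The divided library was also the deepest, which was not tested as a part of this count.

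The strongest of them was a region near Rps29, chr12:69101758-69102444, 55278 bp from the gene. It had 49 fragments in divided cells, no peak in undivided and 20 in polyclonal cells, with a −log10 q of 39.4 in the divided one. A region 8123 bp from Rpsa, chr9:120140492-120141048, had 33 in the divided and 23 in the undivided and no peak in the polyclonal library. One 9187 bp from Rps21 had 27 in the divided library alone, and one 64001 bp from Rps15a 16 in the divided alone. The undivided library had one-sided regions as well. A region inside Rpl3, chr15:80080758-80081028, had 34 in the undivided library only, one 31241 bp from Rpl38 had 13 there only, and one 7651 bp from Rps13 had 17 in the undivided and 18 in the polyclonal library. Assignment is by distance alone, and no region was linked to a gene's output.

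Only 39 of the 81 genes had any other region. Of the 93, 6 lay inside the gene, 46 outside within 10 kb and 41 beyond, with a median distance of 7879 bp, whereas the median over all genes was 0 because many lie inside genes. Ribosomal protein genes are short, with a median span of 3175 bp against 17169 bp over all genes. The most were at Rpl34 with 9, Rplp1 with 8, and Rpl11 and Rpl14 with 6 each.

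Most regions around these 4 genes were shared by all fractions. The strongest near Rpl14, 7484 bp away at chr9:120582137-120583411, had 171, 125 and 149 fragments, more than its gene-end region with 89, 77 and 90. Near Rpl11, a region 27839 bp away had 111, 62 and 86, a log2 ratio of 0.57 for divided over undivided, and one 42094 bp away 42, 42 and 22, which is 0.95 for undivided over polyclonal. Near Rplp1 a region 52617 bp away had 66, 37 and 28 fragments, a log2 ratio of 0.99 for divided over polyclonal. Near Rpl34 one 73354 bp away had 19, 35 and 23, which is -1.15 for divided over undivided. Over all other regions called in both libraries of a pair, the SD of the log2 ratio was 0.42, 0.39 and 0.35, against 0.60, 0.54 and 0.45 for other regions of all genes.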

How the data were processed

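Per the submitters' processing notes, the authors used bcl2fastq 2.17, cutadapt 1.12, Trimmomatic 0.33, Bowtie2 2.3.2, Picard, SAMtools and MACS2 2.1.0 with mm10. The notes give neither their roles nor any transposase shift of reads. Each deposited peak list holds a score, the fold enrichment over background as a ratio, and −log10 p- and q-values per peak; the deposited summit lists repeat the −log10 q-value. These are the authors' values. The lowest −log10 q was 1.31, 1.30 and 1.30, close to a q of 0.05. Read totals were not used here.

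Pileup and background at each summit were recovered from the deposited fold, read as (pileup + 1)/(background + 1), and −log10 p under a Poisson model. A whole pileup within 0.001 was found for over 99.96% of peaks in each library. Recovery was tested on simulated peaks made with the same formulas, so that test cannot check whether the deposited values follow them. Peaks sharing 1 bp were merged. The RefSeq table (GRCm38.p6) gives spans without exons, so exons and introns were not told apart; strand and start came from the promoter table, which holds 61 of the 81 genes. Where it lists several starts, the one nearest the divided summit was used for counts and summit positions; only the printed stretch of Rpl19 uses its last start. Named genes were the 4 highest and 4 lowest in each ratio and in level, those without a gene-end peak, those with one-sided gene-end regions, the 4 with most other regions and the strongest one-sided regions; 36 genes resulted, some of which are not reported here, and Rps6, Rpl5, Rpl11, Rpsa, Rps27a, Rpl10, Rps4x and regions around the 4 genes were described after their values were seen. The members and lists were chosen with earlier results of these data known. The letter strings, the run length, the stretches printed and the grouping of symbols ending in l were chosen after sequences and values were seen. Python 3.11.15, pandas 2.3.3, numpy 2.4.6 and scipy 1.17.1 were used.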

Additional observations from a re-analysis of the deposited data

How the results depend on the processing

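No paired analysis was possible because each fraction has 1 library and the labels give no replicate numbers; for the same reason no library could be left out. Scaling by the lowest background moved the median log2 ratios to -0.34, -0.31 and 0.0053 (divided over undivided, divided over polyclonal, undivided over polyclonal) and the genes past 1.5-fold to 7, 6 and 0. For undivided over polyclonal, scaling by gene-end regions gave a median of -0.018 with 0 genes past the fold (5.69% of all genes). The deposited fold enrichment gave -0.0091 with 0 (2.27%). The deposited fold gave 2 genes for divided over undivided (3.23% of all genes), and summing gene-end regions 1 for divided over polyclonal (7.36%). A looser fold, 5 to 4, gave 12, 10 and 5 genes, where 25.2%, 22.7% and 21.9% of all genes were past it. A fold of 2 gave 0 for divided over undivided (2.35% of all genes) and 0 for undivided over polyclonal (0.970%). Windows on RefSeq promoter starts, chosen after seeing the data, gave 2 for divided over undivided and 0 for undivided over polyclonal. Over all regions of these genes, one-sided counts were 15 and 7 for divided against undivided, 13 and 5 for divided against polyclonal and 8 and 8 for undivided against polyclonal. At the authors' threshold they were 26 and 14, 20 and 12, and 14 and 18, and with a −log10 q minimum of 10 they were 6 and 3, 7 and 1, and 4 and 1. Within 20 kb, divided against undivided gave 9, and polyclonal against undivided 4. No share over all regions is given at these other thresholds and distance, so these counts are not set against the genome. Runs of at least 6 and 10 letters, also chosen after seeing the data, were found at 95.1% and 67.2% of starts, against 67.4% and 17.7% of all genes. The cause of these moves was not tested, beyond a stricter or looser threshold giving fewer or more calls. The gene-end peak count ran from 72 to 77 of 81 under the other windows, thresholds and assignments. A limit on depth by thinning left all one-sided counts as they were because its floor, a pileup of 5, is below nearly every call, so it says little about depth.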
